A study of Sus scrofa with 6 samples.

Results

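The genes described here encode 6 peptide hormones of the stomach and upper small intestine: GIP, SCT (secretin), MLN (motilin), CCK (cholecystokinin), SST (somatostatin) and GHRL (ghrelin). They were chosen by symbol, and each of the 6 symbols matched 1 of the 21911 pig Ensembl identifiers in the deposited table. The RNA came from gut tissue of piglets, with 3 samples from a group labelled SMP and 3 from a Control group. Piglets of the treated group drank alkaline mineral water with metasilicate, per the series' design, and the labels call this treatment SMP. Neither the segment of the gut nor the piglets' age, breed or sex is stated. The Y-linked gene EIF1AY had 2590 reads in SMP and 6 in Control, so sex and treatment cannot be told apart in these samples. The labels do not say that each sample came from its own piglet, so the tests measure the spread between these samples, which may be technical. SMP replicate 3 and Control replicate 2 stood apart from the other libraries of their groups. Across the tested genes, log2 levels had a Pearson correlation of 0.990 between SMP replicates 1 and 2, but of 0.951 and 0.963 between these and SMP replicate 3. It was 0.977 between Control replicates 1 and 3, but 0.941 and 0.942 between these and Control replicate 2. Counts of calls are also given without these libraries where they change.

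Hormones of the gut are made by enteroendocrine cells, scattered single cells of the epithelium that sense the contents of the lumen and release peptides stored in granules. Which hormone such a cell makes depends on where along the gut it lies. In mammals K cells with GIP, S cells with secretin, I cells with cholecystokinin and M cells with motilin are most frequent in the duodenum and jejunum, ghrelin is made mainly in the stomach, and somatostatin is made by D cells throughout the gut and also by enteric neurons. L cells, which make the proglucagon gene GCG, become more frequent towards the ileum and colon.

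The levels of GIP, SCT, MLN and CCK were lower in every SMP library than in every Control library, while those of SST and GHRL overlapped between the groups. The size of the difference ran from 2.71-fold for CCK and 3.24-fold for GIP to over an order of magnitude for SCT and MLN, whose transcripts were barely read in SMP. Levels are in FPKM, a read number scaled by the length of the gene and the total of the library. A log2 difference is SMP minus Control after adding 1 to each FPKM, and it understates changes of low genes. The members were put together with this contrast known, so their differences are a description and no p-value is given for them. In bulk tissue, fewer cells of a type and less RNA per cell cannot be told apart.

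GIP, an incretin that raises insulin release after a meal, had 25.9, 30.5 and 32.4 FPKM in SMP replicates 1, 2 and 3, against 112, 81.6 and 94.1 FPKM in Control replicates 1, 2 and 3. Its groups lay far apart, and it varied least within a group among the 6 genes, with a highest library 1.25 times the lowest in SMP and 1.38 times in Control. The mean level was 29.6 ± 3.35 FPKM in SMP and 96.0 ± 15.5 FPKM in Control (SD, n = 3 each), a log2 difference of -1.66 (SE 0.17).

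SCT encodes secretin, which is released when acid reaches the duodenum and makes the pancreas and bile ducts secrete bicarbonate. Its level was 0.278, 0.553 and 0.340 FPKM in SMP replicates 1, 2 and 3, against 32.8, 5.33 and 24.0 FPKM in Control replicates 1, 2 and 3. Every SMP library was near the limit of detection, and Control replicate 2 had the lowest Control level. The SMP values rest on 3, 6 and 3 reads, and the Control values on 274, 45 and 234 reads. Summed over the groups, 12 reads in SMP stood against 553 in Control, a rate 52.9-fold lower per read sequenced (95% exact binomial interval 30.04 to 103, for counting error only). The log2 difference was -3.66 (SE 0.58).

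MLN encodes motilin, which drives the contractions that sweep the stomach and small intestine between meals. It had 0.0203, 0.0101 and 0.0125 FPKM in SMP replicates 1, 2 and 3, against 3.52, 0.756 and 2.71 FPKM in Control replicates 1, 2 and 3. These SMP levels stand for 2, 1 and 1 reads, whereas the Control libraries held 267, 58 and 241 reads. The 4 SMP reads against 566 Control reads made a rate 162-fold lower in SMP, with a counting interval of 63.1 to 598. The log2 difference of -1.61 (SE 0.34) is smaller than this because the pseudocount of 1 exceeds every SMP value.

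CCK encodes cholecystokinin, which empties the gallbladder, stimulates pancreatic enzymes and promotes satiety, and is also a transmitter of neurons. Its level was 4.44, 3.57 and 3.47 FPKM in SMP replicates 1, 2 and 3, against 15.3, 5.27 and 10.5 FPKM in Control replicates 1, 2 and 3. The groups did not overlap, but the gap between SMP replicate 1 and Control replicate 2 was narrow beside the spread within Control. The means were 3.83 ± 0.529 FPKM in SMP and 10.4 ± 5.03 FPKM in Control (SD, n = 3 each), and the log2 difference was -1.13 (SE 0.33).

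SST encodes somatostatin, which restrains the release of other gut hormones and of gastric acid. It had 76.6, 91.3 and 58.6 FPKM in SMP replicates 1, 2 and 3, against 77.9, 122 and 64.3 FPKM in Control replicates 1, 2 and 3. The groups overlapped almost completely, and the log2 difference of -0.19 (SE 0.28) was below its error. The direction of SST turned without Control replicate 2 (0.069) and without both Control replicate 2 and SMP replicate 3 (0.24).

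GHRL encodes ghrelin, a hormone that stimulates appetite and growth hormone release. Its level was 0.339, 0.253 and 1.66 FPKM in SMP replicates 1, 2 and 3, against 5.6, 1.41 and 3.19 FPKM in Control replicates 1, 2 and 3. SMP replicate 3 was above Control replicate 2, so the groups overlapped. Reads were few, 4, 3 and 16 in SMP and 51, 13 and 34 in Control, and the log2 difference was -1.30 (SE 0.43).

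**Figure D1:**
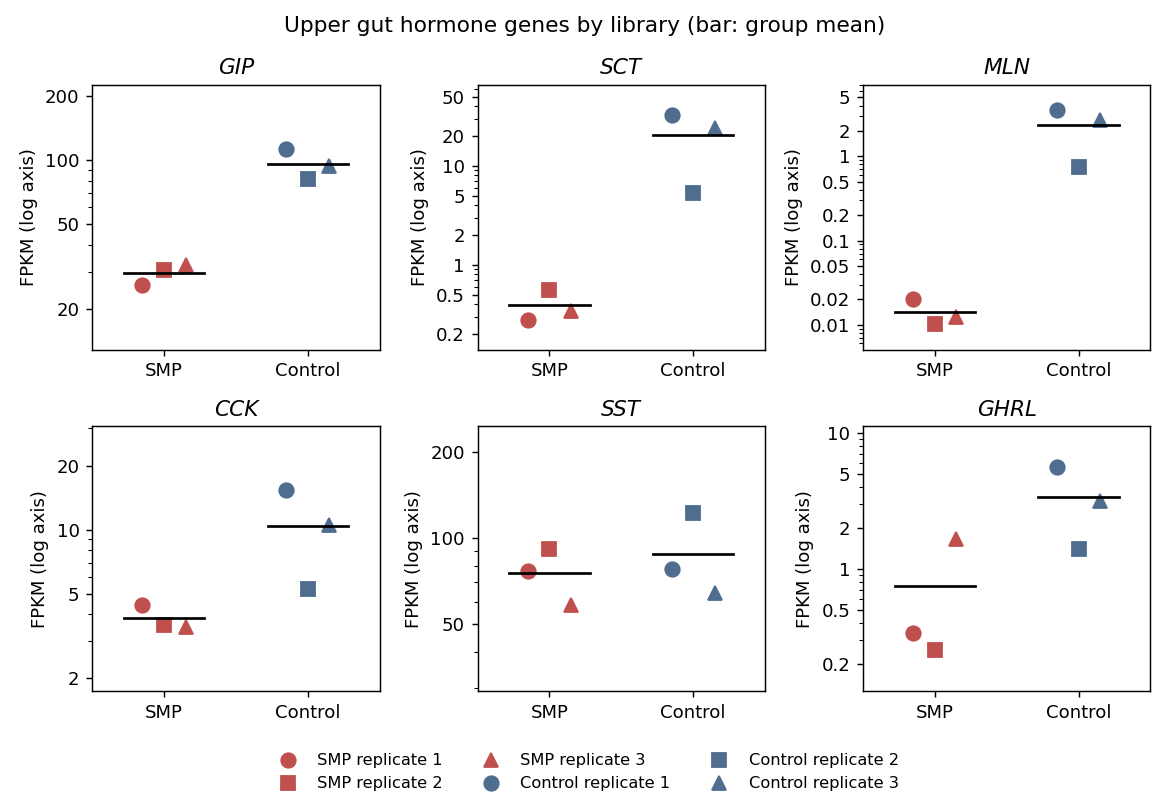
Level of each of the 6 hormone genes in FPKM on a log axis, which differs between panels, with SMP on the left and Control on the right; points are libraries, marked by replicate number, and bars are group means. GIP, SCT, MLN and CCK are lower in every SMP library than in every Control library, whereas SST and GHRL overlap.

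A fit of the 11471 genes whose mean over the 6 libraries reached 1 FPKM called 401 genes higher (3.5%) and 241 lower (2.1%) in SMP, 5.6% in all, at an adjusted p under 0.05 from limma with Benjamini-Hochberg adjustment. All 6 hormone genes passed the filter on low values, but SCT, MLN and GHRL did so through their Control libraries alone, with SMP means of 0.390, 0.0143 and 0.752 FPKM. GIP, SCT and MLN were among the 241 genes called lower, CCK, SST and GHRL were not called, and none of the 6 was called higher. Groups with every SMP library below every Control library were found in 11.5% of all genes tested and in 4 of the 6 hormone genes. The opposite, every SMP library above every Control library, was found in 21.1% of all genes tested and in 0 of the 6. A mean level in SMP under 0.5 times that in Control was found in 3.28% of all genes tested and in 5 of the 6 hormone genes. Nothing is read from these shares, since the contrast helped to choose the genes. The median log2 difference was -1.45 over the hormone genes and 0.090 over all genes tested. Relative to that median of all genes, the hormone differences were -1.75 for GIP, -3.75 for SCT, -1.70 for MLN, -1.22 for CCK, -0.28 for SST and -1.39 for GHRL. Under median-ratio rescaling of the 6 libraries, the median of all genes was -0.013 and 299 genes were called higher and 423 lower, so that 41.4% of the calls were higher in place of 62.5%.

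The calls among the hormone genes depended on single libraries, as did those over all genes. The number of hormone genes called lower was 1 without SMP replicate 1, 0 without SMP replicate 2 and 2 without SMP replicate 3. It was 1 without Control replicate 1, 4 without Control replicate 2 (4.6% of all genes tested there) and 0 without Control replicate 3. Over all genes, 27 of 11450 tested were called lower without SMP replicate 1 and 23 of 11418 without SMP replicate 2. The count was 56 of 11486 without Control replicate 1 and 20 of 11542 without Control replicate 3, against 241 of 11471 as reported. Without both Control replicate 2 and SMP replicate 3, 5 of the 6 hormone genes were called lower, all but SST, beside 10.8% of the genes tested there. Calls over all genes were more frequent than as reported without SMP replicate 3, without Control replicate 2 and without both, and rarer without any other single library. Without both libraries 15.8% of genes were called higher. The shares were 6.79% higher and 2.49% lower without SMP replicate 3, and 4.66% higher without Control replicate 2. The log2 differences without both libraries were -1.83 for GIP, -4.37 for SCT, -2.01 for MLN, -1.46 for CCK and -2.02 for GHRL. Over the 15 alternative settings GIP kept a log2 difference between -1.83 and -1.54, the narrowest range of the 5 lower genes.

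**Figure D2:**
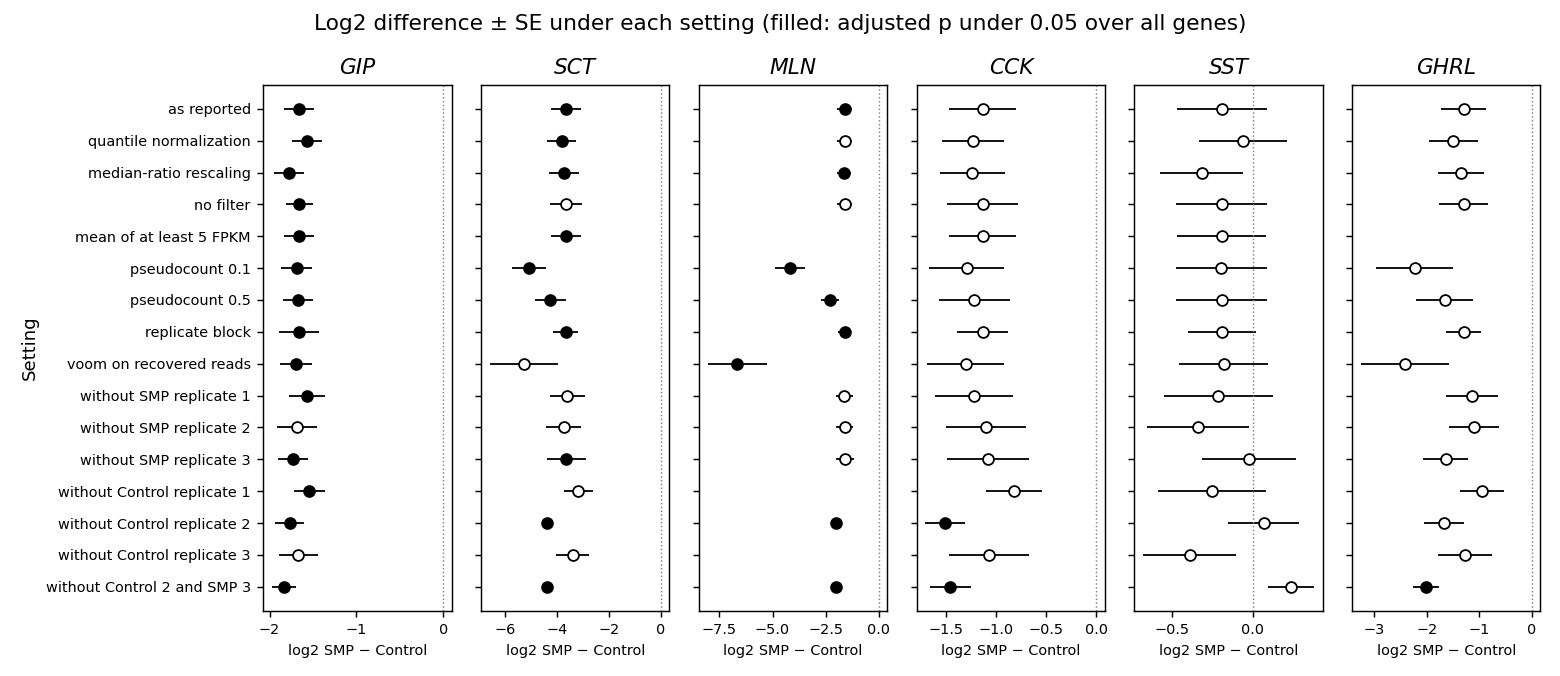
Log2 difference (SMP minus Control) with its SE on the x axis for each hormone gene, under the reported setting and each alternative on the y axis; the x scale differs between panels, filled points have an adjusted p under 0.05 over all genes, and a missing point means that the gene did not pass that filter. GIP, SCT, MLN, CCK and GHRL are below 0 in each setting shown, while SST crosses 0.

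The order of the levels within a library also differed. In SMP the order was SST (75.5 ± 16.4 FPKM), GIP (29.6 ± 3.35 FPKM), CCK (3.83 ± 0.529 FPKM), GHRL (0.752 ± 0.791 FPKM), SCT (0.390 ± 0.144 FPKM) and MLN (0.0143 ± 0.00535 FPKM), and of these neighbours GHRL and SCT overlapped. In Control, GIP (96.0 ± 15.5 FPKM) and SST (88.2 ± 30.3 FPKM) were the highest and overlapped. They were followed by SCT (20.7 ± 14.0 FPKM) and CCK (10.4 ± 5.03 FPKM), which overlapped, and by GHRL (3.40 ± 2.10 FPKM) and MLN (2.33 ± 1.42 FPKM), which overlapped too (SD, n = 3 throughout). GHRL in Control replicate 1 (5.6 FPKM) was also above SCT and CCK in Control replicate 2 (5.33 and 5.27 FPKM), so these ranges met as well. GIP was at 0.338, 0.335 and 0.553 of the level of SST in SMP replicates 1, 2 and 3, against 1.44, 0.667 and 1.46 in Control replicates 1, 2 and 3. SCT was at 0.0626, 0.155 and 0.0980 of the level of CCK in SMP, against 2.14, 1.01 and 2.28 in Control. The summed level of the 6 genes was 96.5 to 126 FPKM in SMP and 199 to 248 FPKM in Control, without overlap, and SST and GIP together made 94.3% to 96.5% of it in SMP and 76.9% to 94.1% in Control.

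FPKM divides by the gene length that the authors' annotation gives, which can be read back from the values. It was 4764 bases for MLN and 4109 for CCK, but 661 for GIP, 602 for SST, 572 for GHRL and 524 for SCT. MLN and SCT were therefore read about equally in Control, with 566 and 553 reads, although the mean level per length was 20.7 FPKM for SCT and 2.33 FPKM for MLN. Ratios of FPKM between groups for 1 gene are not touched by this, since each gene has a single length in all libraries. The log2 differences and the filter do depend on it, as both set the level per length against a fixed 1 FPKM. For MLN the log2 difference was -1.61 with a pseudocount of 1 and -4.17 with one of 0.1.

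CHGA encodes chromogranin A, a granule protein of enteroendocrine cells of many kinds, and was taken as 1 reference for endocrine RNA in each library. Other granule genes went both ways. The log2 difference was -0.36 for CHGB, with every SMP library below every Control library, but 0.69 for CPE and 0.52 for SCG2. None of these was called with all libraries, and the ratios given here hold for CHGA only. CHGA was at 24.4 ± 3.53 FPKM in SMP and 27.7 ± 5.27 FPKM in Control (SD, n = 3 each), with a log2 difference of -0.17 (SE 0.19, limma adjusted p = 0.614), which turned to 0.092 without both Control replicate 2 and SMP replicate 3. Per unit of CHGA, GIP was at 1.00 to 1.59 in SMP and 2.43 to 4.81 in Control. SCT per CHGA was 0.0108 to 0.0204 in SMP and 0.159 to 1.40 in Control, and MLN per CHGA was 0.000374 to 0.000788 in SMP and 0.0225 to 0.151 in Control, so that none of these 3 overlapped. CCK per CHGA was 0.132 to 0.172 in SMP and 0.157 to 0.656 in Control, and it overlapped on this scale. SST per CHGA was 2.87 to 3.37 in SMP and 2.46 to 3.64 in Control. GHRL per CHGA was 0.00936 to 0.0815 in SMP and 0.0420 to 0.240 in Control, again with overlap.

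**Figure D3:**
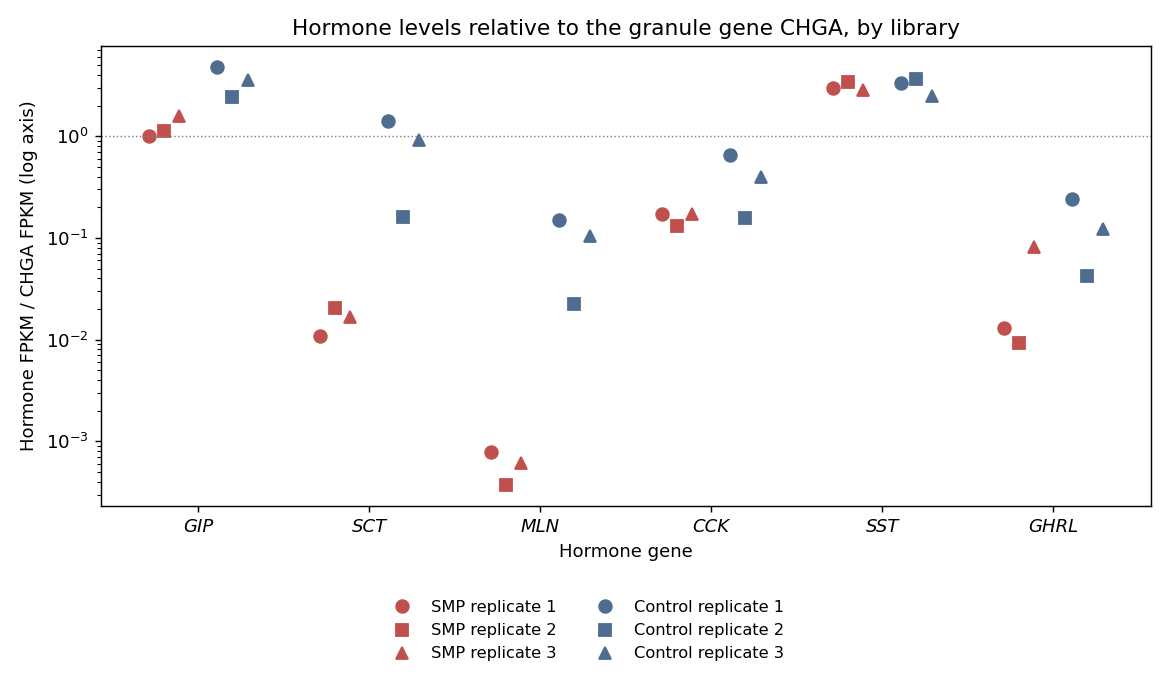
Level of each hormone gene divided by that of CHGA in the same library, on a log axis, with SMP points left of Control points for each gene and replicates marked by shape. GIP, SCT and MLN stay apart between the groups per unit of CHGA, with GIP at 1.00 to 1.59 in SMP and 2.43 to 4.81 in Control, while CCK, SST and GHRL overlap.

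Within Control, replicate 1 was highest, replicate 3 next and replicate 2 lowest for each hormone gene but SST. This order was shared by 5 of the 6 hormone genes, by 32.5% of all genes tested, and by all 8 measured genes of a list of the proximal small intestine. The spread was 6.16-fold for SCT, 4.66-fold for MLN, 3.97-fold for GHRL, 2.91-fold for CCK and 1.38-fold for GIP between the highest and lowest Control library. On the log2 scale, Control replicate 2 lay 25.4% of the way from the SMP mean to the mean of Control replicates 1 and 3 for CCK, 32.8% for GHRL, 39.3% for MLN, 49.9% for SCT and 81.3% for GIP. GIP was thus the hormone gene in which this library was closest to the other Controls.

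Lists of genes that mark segments of the gut were read beside the hormones. They were chosen with earlier results of these data known, so their counts of calls are a description. Over all genes tested, 3.5% were called higher and 2.1% lower. On the proximal list, ADA, an enzyme of purine breakdown that is abundant in the duodenum, was the 1 gene of 8 called lower, and none was called higher (list median -1.49, against 0.090 for all genes tested). Without Control replicate 2, 5 of the 8 were called lower, beside 4.6% of all genes tested there. Without both Control replicate 2 and SMP replicate 3, 7 of the 8 were, all but GATA4, beside 10.8% of all genes tested there. Control replicate 2 was the lowest Control library for all 8, so leaving it out raised the Control mean. The summed level of the list was 104, 108 and 138 FPKM in SMP replicates 1, 2 and 3, against 1143, 259 and 820 FPKM in Control replicates 1, 2 and 3, without overlap. CYBRD1, a reductase for dietary iron, had 41.0, 43.6 and 57.0 FPKM in SMP and 232, 78.2 and 172 FPKM in Control, and the iron exporter SLC40A1 had 2.28, 3.40 and 8.6 FPKM in SMP and 112, 10.1 and 71.8 FPKM in Control. Of the 8 genes, 4 were lower in every SMP library than in every Control library, and GATA4, HEPH, SLC11A2 and ONECUT2 overlapped. GATA4, which sets the identity of the upper small intestine, had 21.7 to 30.8 FPKM in SMP and 22.2 to 30.6 FPKM in Control. On a list of the large intestine, 4 of 6 genes tested were called higher and 1 lower (median 1.83). With either SMP replicate 3 or Control replicate 2 left out, 3 of the 6 were called higher, the call of BEST4 being lost. SLC26A3 and OTOP2, which carry anions and protons across the surface epithelium, were called higher in all 15 alternatives, CA4 in 10 and BEST4 in 3, and the water channel AQP8 was called lower in 13, as was ADA. The part of these segment markers in the hormone differences was not tested.

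L cells were represented by GCG, whose products include GLP2, the hormone named in the title of the series. It had 22.3, 25.4 and 34.0 FPKM in SMP replicates 1, 2 and 3, against 0.443, 5.81 and 4.12 FPKM in Control replicates 1, 2 and 3. GCG was called higher in the fit of all genes (log2 difference 2.92, SE 0.55, limma adjusted p = 0.0339), and the call was lost in 6 of 15 alternatives, among them without SMP replicate 1, 2 or 3 or Control replicate 3 (adjusted p = 0.122, 0.135, 0.0667 and 0.115). GCG stood at 0.863, 0.833 and 1.05 times the level of GIP in SMP, against 0.00395, 0.0712 and 0.0438 times in Control. The groups did not overlap in this ratio. Of 12 further hormone and peptide genes measured, GCG included, 8 were tested, 1 was called higher and none lower (median 0.33). Neurotensin (NTS) had 9.51 ± 3.18 FPKM in SMP and 5.82 ± 0.533 FPKM in Control, and the vasodilator peptide VIP had 7.67 ± 1.26 FPKM in SMP and 4.64 ± 2.81 FPKM in Control, and neither was called. Without Control replicate 2, VIP was called higher (log2 difference 1.10, against 0.72 with all libraries), and without SMP replicate 3, NTS was (0.83, against 0.58). Without both libraries 4 of 9 tested were called higher, GCG, NTS, VIP and GAL, beside 15.8% of all genes tested there. The gastrin gene GAST had 5, 10 and 6 reads in SMP and 9, 8 and 11 reads in Control, and did not pass the filter.

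**Figure D4:**
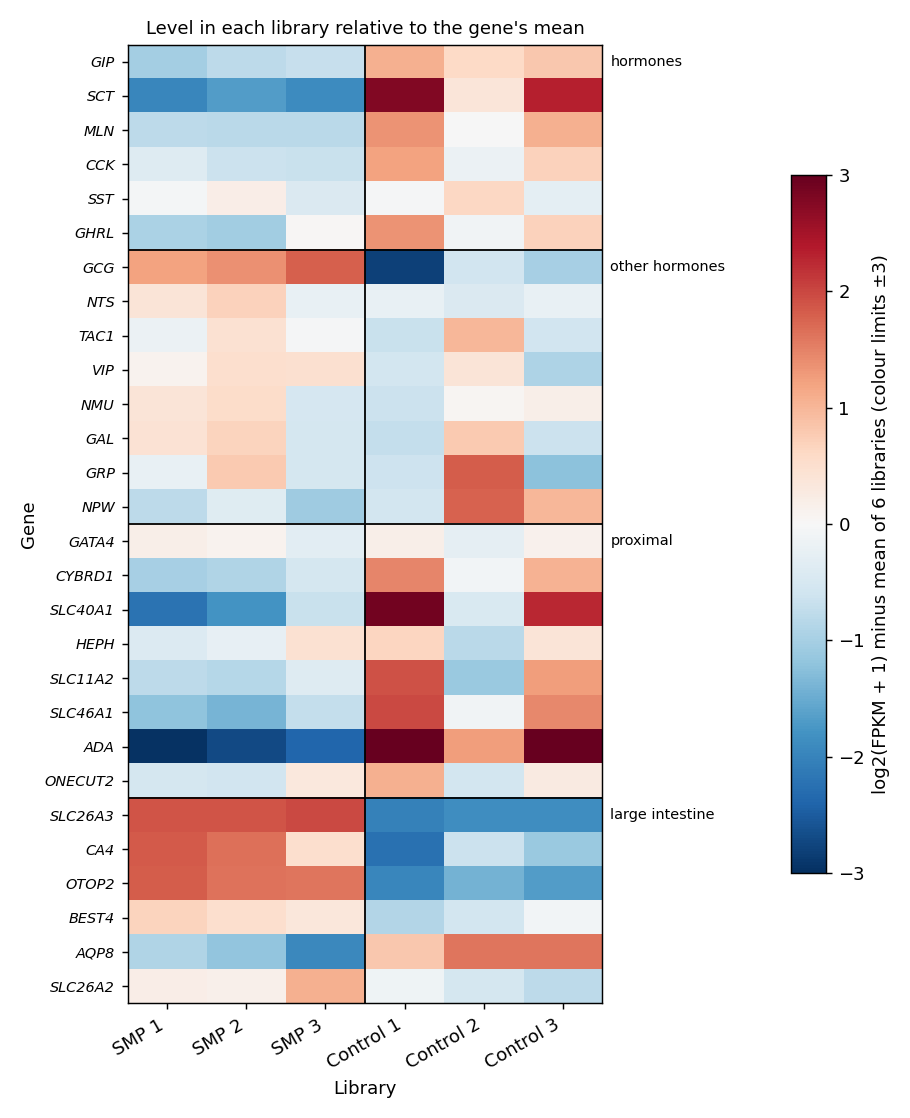
Log2(FPKM + 1) in each library minus the gene's mean over the 6 libraries, with SMP libraries left and Control libraries right, for the 6 hormone genes, other hormone genes and 2 lists of segment markers. SCT, ADA and SLC40A1 have their highest levels in Control replicates 1 and 3 with Control replicate 2 between these and SMP, whereas GCG, SLC26A3 and OTOP2 are higher in SMP.

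Receptors of these hormones were mostly near the limit of detection. Of 8 receptor genes measured, 2 were tested and neither was called. GHSR, the ghrelin receptor, was the exception in level, with 17.9, 19.1 and 19.5 FPKM in SMP replicates 1, 2 and 3, against 38.8, 25.8 and 34.2 FPKM in Control replicates 1, 2 and 3. Every SMP library was below every Control library, with a log2 difference of -0.76 (SE 0.18, limma adjusted p = 0.0567). That p was between 0.00947 and 0.203 over 15 alternatives and passed in 5 of them, among them without Control replicate 2 (0.0235). GHSR held 3339 to 4031 reads in SMP and 4244 to 6506 in Control, far more than GHRL itself. The length read back for GHSR was 10206 bases, longer than that of any of the hormone genes. TNFSF10, the next gene on 1 side of it, was not matched by symbol. Whether all of these reads came from GHSR transcripts was not tested. The somatostatin receptor SSTR1 had 2.06, 2.04 and 1.91 FPKM in SMP and 0.923, 1.27 and 1.15 FPKM in Control, with every SMP library higher, and did not pass either (log2 difference 0.51, SE 0.14, limma adjusted p = 0.0758). It passed without both Control replicate 2 and SMP replicate 3 (0.0382), 1 of 14 alternatives.

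The other receptors stayed under 1 FPKM in every library. GIPR, the receptor of GIP, had 36, 37 and 9 reads in SMP and 14, 25 and 41 reads in Control. The secretin receptor SCTR had at most 8 reads in a library and the motilin receptor MLNR at most 5. Among the somatostatin receptors, SSTR2 had at most 6 reads, SSTR3 at most 4 and SSTR5 at most 11. No identifier matched CCKAR, CCKBR or SSTR4, which were not analysed here.

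Genes that make and store the peptides showed no call in either direction among 9 tested of 15 measured (median 0.078, against 0.090 for all genes tested). The prohormone convertases PCSK1 and PCSK2, which cut most gut prohormones, were low. PCSK1 was at 0.683 ± 0.157 FPKM in SMP and 0.558 ± 0.212 FPKM in Control, and PCSK2 at 0.340 ± 0.058 FPKM in SMP and 0.274 ± 0.190 FPKM in Control. FURIN, a convertase of nearly all cells, was at 45.7 ± 3.51 FPKM in SMP and 52.8 ± 10.2 FPKM in Control. PCSK1N, an inhibitor of convertases, had 25.1, 34.9 and 12.7 FPKM in SMP, against 13.3, 55.7 and 6.87 FPKM in Control, with the highest value in Control replicate 2. DPP4, the protease that inactivates GIP and other incretins, was at 89.2 ± 37.4 FPKM in SMP and 82.1 ± 21.6 FPKM in Control. Without Control replicate 2, the granule genes CPE and SCG2 were called higher. Without both Control replicate 2 and SMP replicate 3, these and PCSK1N and VGF were called higher and DPP4 lower (log2 difference -0.48, against 0.078 with all libraries). MBOAT4, which adds the fatty acid that active ghrelin carries, had 1 read in SMP and 0 in Control over all libraries.

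Transcription factors of enteroendocrine cells were low, and 10 of the 16 measured did not reach a mean of 1 FPKM. None of the 6 tested was called (median 0.17). NEUROG3, which commits cells to the endocrine lineage, had 3.53, 2.09 and 1.68 FPKM in SMP, against 1.02, 1.65 and 1.18 FPKM in Control. Every SMP library was above every Control library for 3 of the 6 tested, NEUROG3, FEV and MLXIPL, and for 21.1% of all genes tested. MNX1 was at 8.61 ± 2.73 FPKM in SMP and 8.30 ± 1.27 FPKM in Control, and MLXIPL, a glucose-responsive factor, at 6.17 ± 0.498 FPKM in SMP and 4.75 ± 1.01 FPKM in Control. HHEX, a factor of D cells in the mouse pancreas, was at 1.43 ± 0.132 FPKM in SMP and 2.51 ± 1.23 FPKM in Control. Of 13 sensors of the lumen measured, 5 were tested and 0 called (median 0.11). The glucose transporter SLC5A1, through which sugar triggers GIP release, was at 127 ± 66.2 FPKM in SMP and 98.8 ± 24.4 FPKM in Control, and the peptide transporter SLC15A1 was at 77.9 ± 47.0 FPKM in SMP and 65.4 ± 15 FPKM in Control. LPAR5, a receptor for lipids and peptide digests, was at 31.0 ± 2.48 FPKM in SMP and 34.2 ± 2.02 FPKM in Control (SD, n = 3 throughout).

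Markers of other cell types were read in each library, among them those of neurons, which also make SST and CCK. The summed level of 10 enteric neuron markers was 62.3, 66.8 and 41.1 FPKM in SMP replicates 1, 2 and 3, against 32.2, 97.3 and 30.6 FPKM in Control replicates 1, 2 and 3. SST followed the same order of libraries as this sum within each group, highest in replicate 2 and lowest in replicate 3, whereas CCK was lowest in Control replicate 2. Of the single markers, UCHL1, TUBB3 and PRPH had this order in both groups, and the others did not. GAP43 was highest in SMP replicate 1 (17.9 FPKM) and in Control replicate 3 (18.1 FPKM). The part of neurons in the SST and CCK levels was not tested. No neuron marker was called among 9 tested (median 0.41), of which GAP43, UCHL1 and PRPH were the most abundant. Without Control replicate 2, 3 of 8 were called higher (PRPH, SNAP25 and TUBB3, median 0.95), beside 4.66% of all genes tested there. Without both Control replicate 2 and SMP replicate 3, 4 of 7 were, UCHL1 being the other (median 1.08), beside 15.8%. Smooth muscle markers, led by TAGLN, ACTG2 and DES, summed to 1543 to 2132 FPKM in SMP and 119 to 2701 FPKM in Control, with the lowest sum in Control replicate 3. Epithelial markers, led by KRT8, KRT20 and VIL1, summed to 3252 to 3490 FPKM in SMP and 2866 to 3598 FPKM in Control, and these sums overlapped. None of the 8 epithelial genes tested was called, but without both libraries CDX2 and KRT18 were called higher and KRT20 lower.

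Markers of stomach and pancreas were mostly low in these gut samples. Of 8 stomach and Brunner gland genes measured, 6 had a mean under 1 FPKM, among them GKN1, PGC, ATP4B and MUC6. TFF2, a trefoil peptide of mucous glands, was an exception, with 121, 128 and 40.5 FPKM in SMP and 226, 137 and 213 FPKM in Control, every SMP library being lower, and was not called (log2 difference -1.12). SMP replicate 3 held the lowest value, and without it the difference was -0.59, while without both SMP replicate 3 and Control replicate 2 it was -0.82 and called. TFF1, another trefoil peptide, had 0.294 to 2.39 FPKM in SMP and 0.273 to 0.413 FPKM in Control, and was called higher without SMP replicate 3, also with Control replicate 2 left out besides. CBLIF, which encodes intrinsic factor, had 1.52, 1.45 and 1.30 FPKM in SMP and 4.33, 0.720 and 1.79 FPKM in Control. Of 8 pancreas genes listed, 2 were matched, CPA1 and CLPS, and they summed to 0.534 to 1.87 FPKM in SMP and 0.553 to 1.06 FPKM in Control. EIF1AY, a Y-linked gene, was at 26.4 ± 2.93 FPKM in SMP and 0.0731 ± 0.1 FPKM in Control (SD, n = 3 each), so sex and treatment cannot be told apart in these samples, and the same holds for the gut segment, which the labels do not give.

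Genes whose levels followed the hormones most closely were picked by Pearson correlation of log2 levels over the 6 libraries among 9968 tested genes with a symbol. These correlations are descriptions over 2 groups of libraries, and the difference between the groups makes much of each. SCT was closest to KCNE1 (r = 0.999), a potassium channel subunit with 0.308, 0.674 and 0.226 FPKM in SMP and 98.7, 9.61 and 55.8 FPKM in Control, followed by the organic cation exporter SLC47A1 (0.998) and by PIDD1 (0.997). MLN was closest to the epoxide hydrolase EPHX1 (0.998), to FUNDC1 (0.997) and to the metallothionein MT3 (0.997), which had 31.2, 31.5 and 37.8 FPKM in SMP and 249, 69.5 and 180 FPKM in Control. Among the genes closest to GIP were DTWD1 and ZFAND6 (0.996 each), and CCK was closest to GPCPD1, HBEGF and ANKRD49 (0.998, 0.996 and 0.995), as was GHRL to NCSTN, TENT5A and KIF21B (0.997, 0.995 and 0.995). SST was closest to RGS2 (0.991), RHBDD2 (0.983) and CRIP2 (0.982). RGS2, an inhibitor of G protein signalling, had 20.6, 28.7 and 12.3 FPKM in SMP and 22.0, 48.6 and 12.3 FPKM in Control, highest in Control replicate 2 as SST was.

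The genes beside the hormone genes in the RefSeq annotation of the assembly Sscrofa11.1 were read for comparison, and 0 annotated genes overlapped any of the 6. Of the neighbours that could be matched by symbol, LEMD2 beside MLN (18.2 ± 2.29 FPKM in SMP and 20.5 ± 0.414 FPKM in Control), SNF8 beside GIP (17.5 ± 0.836 FPKM in SMP and 18.7 ± 1.15 FPKM in Control) and TRAK1 beside CCK (6.03 ± 0.515 FPKM in SMP and 5.36 ± 1.59 FPKM in Control) were not called. TATDN2 and SEC13, on the 2 sides of GHRL, were not called either. CDHR5, a cadherin of the brush border beside SCT, was at 274 ± 37.4 FPKM in SMP and 499 ± 87.2 FPKM in Control, with every SMP library lower and a log2 difference of -0.86 (SE 0.19, limma adjusted p = 0.0508). It was called lower without SMP replicate 3 (adjusted p = 0.0399), without Control replicate 2 (0.0285) and without both (0.00624). PIDD1, named above for its likeness to SCT, lies on the same chromosome with 8 protein-coding genes between them, and was at 1.19 to 1.22 FPKM in SMP and 1.62 to 2.19 FPKM in Control.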

How the data were processed

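RNA-seq libraries of 3 SMP and 3 Control gut samples were grouped by their treatment label, with replicate numbers from the titles. HISAT2 2.0.5, StringTie and DESeq2 1.16.1 are named, without their roles, per the submitters' processing notes, as is mm10. That is a mouse build while the identifiers are pig ones, so no coordinates are printed. How strand and reads shared between genes were handled is not stated.

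The authors deposited FPKM values for 21911 genes, of which 14153 had a symbol in the gene name table. The unit was read from the values: dividing out 1 length for each gene and 1 total for each library leaves whole numbers. These reads (or read pairs) were recovered for 100% of genes at a relative tolerance of 5e-09. Library totals were 16816165 to 20712701 in SMP and 15927028 to 18636198 in Control, so that 3 reads in a gene of 2 kb stood for 0.0724 to 0.0942 FPKM.

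The test used limma 3.58.1 in R 4.3.3 on log2(FPKM + 1), with treatment as the only term, an empirical Bayes trend, a filter of 1 FPKM on the gene's mean and Benjamini-Hochberg adjustment at 0.05, and was tested on simulated data. No set test was run. Alternatives were quantile normalization, median-ratio rescaling, no filter, a filter of 5 FPKM, pseudocounts 0.1 and 0.5, the replicate number as a block, voom on the recovered reads, each library left out, and Control replicate 2 and SMP replicate 3 left out together. Named were the hormone genes, the called genes and the 3 most abundant genes of each list, all receptors and convertases, and the 3 most correlated genes, of which 1 is not reported here. Neighbouring genes, GATA4 and the other proximal genes that overlapped, GAST, genes called only with libraries left out, NEUROG3, FEV, CHGB, PCSK1N, MBOAT4, EIF1AY and the stomach genes at or near 0 were named after their values were seen. The members, the lists and the alternatives were chosen with earlier results of these data known.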

Additional observations from a re-analysis of the deposited data

How the results depend on the processing

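Over 15 alternatives the log2 differences of GIP, SCT, MLN, CCK and GHRL stayed below 0 wherever the gene was tested, while that of SST ran from -0.39 to 0.24. The number of hormone genes called lower, 3 as reported, was 1 with no filter and 5 without both Control replicate 2 and SMP replicate 3, and ran from 0 to 4 when single libraries were left out. The hormone genes called higher were 0 throughout. GIP was called in 13 alternatives, SCT in 9, MLN in 7 of 12, CCK in 2 of 15, GHRL in 1 of 14 and SST in 0. Since the contrast helped to choose these genes, the counts show only how the calls moved with the setting. Over all genes, 401 were higher and 241 lower as reported. No filter gave 158 and 100, a mean of at least 5 FPKM gave 241 higher, median-ratio rescaling gave 423 lower, and leaving out both libraries gave 1808 and 1235. Leaving out single libraries gave 20 to 779 higher and 20 to 526 lower. With the replicate number as a block 115 were higher and 121 lower, and the same number of hormone genes, 3, was called lower. Whether the replicate numbers pair the libraries is not stated. The deviations of same-numbered libraries correlated at -0.31, 0.32 and -0.037 for replicates 1, 2 and 3. Not every library correlated best with its own number. Deviations from a mean of 3 libraries are not independent, so these values cannot show whether the libraries were paired. The log2 difference of CHGA was lowest with median-ratio rescaling (-0.29), ran from -0.28 to -0.026 when single libraries were left out, and turned to 0.092 without both Control replicate 2 and SMP replicate 3. MLN and GHRL could not be tested at a mean of at least 5 FPKM, nor MLN without Control replicate 1 or 3. The causes of these shifts were not tested. Depth limits the SMP levels of SCT, MLN and GHRL, which rest on 12, 4 and 23 reads.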
